A study of Mus musculus with 32 samples.

Results

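The genes described here encode the subunits, activators and assembly factors of the proteasome, measured in mouse helper T cells. They were chosen by name, as every gene whose platform symbol starts with Psma, Psmb, Psmc, Psmd, Psme, Psmf or Psmg followed by a number. That rule found 50 genes among the 23339 genes measured: 49 of 22180 on the arrays of cells taken at 48 h, 47 of 17097 on those of cells taken at 72 h, and 46 on both. Psmc6, Psmd10 and Psme4 were measured at 48 h only, and Psma4 at 72 h only. The pattern also caught Psmc3ip, a partner of recombination proteins in homologous chromosome pairing, and Psme3ip1, which binds an activator of the proteasome. Neither is a part of the proteasome, and both are kept in the counts and named apart.

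The proteasome degrades proteins that carry a ubiquitin tag. Its core is a barrel of stacked rings: the outer rings are built of alpha subunits and control entry, and the inner rings are built of beta subunits, of which Psmb5, Psmb6 and Psmb7 hold the cutting sites. A regulatory particle caps the barrel, where ATPases (the Psmc genes) unfold the substrate and non-ATPase subunits (most Psmd genes) bind and remove ubiquitin. In immune cells and under interferon gamma, Psmb8, Psmb9 and Psmb10 are built in at the places of Psmb5, Psmb6 and Psmb7 to form the immunoproteasome, which makes peptides that fit MHC class I molecules well. Psme1 and Psme2 form the PA28 alpha and beta cap, an activator that is also raised by interferon gamma. When proteasome activity is short, the transcription factor NRF1 (encoded by Nfe2l1) raises the subunit genes together.

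The 32 arrays held CD4+ T cells of DO11.10 mice, Balb/c animals whose T cells carry a transgenic receptor for a peptide of ovalbumin (OVA). Axial and cervical lymph nodes supplied the T cells, which were cultured with or without OVA on peritoneal macrophages, drawn out by thioglycollate given 3 days earlier, and viable CD4+ single cells were then sorted. At 48 h, 3 arrays each held cells given OVA in full medium, cells given OVA in full medium on pretreated macrophages, and cells given OVA in RPMI medium with arginine, leucine or lysine lowered to 1% of normal. Pretreated macrophages had received IL-4 and IL-10, at 10 ng/mL each, for 12 to 16 h and were washed before the T cells were added. The low media without OVA gave 2 arrays in the case of arginine and 3 in those of leucine and lysine; no array at 48 h that was used here held cells without OVA in full medium. At 72 h, 3 arrays each held cells in full medium without OVA, with OVA, and with OVA on pretreated macrophages. All groups share the transgenic receptor, the strain and the macrophages, so the culture held cells other than the T cells that were sorted. The labels do not state that the arrays of a group are separate cultures or mice. A p-value here therefore covers the spread among these arrays alone, which may be technical.

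Values are log2 expression levels per probe set, normalized by RMA, and differences are log2 fold changes from limma ± SE. A gene was called where limma's p, adjusted by Benjamini-Hochberg over all genes of the platform, was below 0.05. Each gene stands by its brightest probe set, and a level is compared between arrays only, never between genes. Array medians were 5.44 to 5.75 at 48 h and 3.87 to 4.04 at 72 h. The mean level of 6 measured CD4 T cell markers was 10.09 or more in every array at 48 h, up to 10.96, and 9.19 or more at 72 h, up to 10.62.

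The arrays without OVA at 72 h stood apart from their label. The mean level of 10 mesothelial and stromal markers, such as Upk3b and Cdh11, was between 10.06 and 10.40 in these 3 arrays. It was between 4.15 and 4.61 with OVA on untreated macrophages and between 4.69 and 6.52 with OVA on pretreated ones. All 10 of those markers were called lower with OVA on untreated macrophages, as were 8 of 12 macrophage markers. The mean level of the macrophage markers was 5.26 to 7.12 without OVA and 3.69 to 3.76 with OVA on untreated macrophages. All 3 arrays of that group carry these markers, so no comparison with antigen at 72 h can be made without them. In bulk RNA, fewer cells of a type and less RNA per cell cannot be told apart.

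With OVA in full medium for 72 h, 28 of the 47 measured genes were called higher and 0 lower than without OVA. Over all genes, 20.7% were called higher and 17.4% lower. Antigen and the share of other cells cannot be told apart in this contrast, nor for the single genes below. The median change of the members was 0.51, against 0.02 over all genes, and 46 of the 47 changes were positive. The immunoproteasome and the PA28 alpha and beta cap were among the genes that rose: 3 of 3 and 2 of 2. Of the alpha ring 6 of 7 rose, of the constitutive beta ring 4 of 7, of the assembly chaperones 5 of 6, and of the other activators and inhibitors 2 of 2. In the regulatory particle 1 of 5 ATPases (Psmc1) and 4 of 11 non-ATPase subunits (Psmd7, Psmd12, Psmd13 and Psmd14) were called; the difference between roles was not tested.

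Psmb9, which replaces the beta subunit Psmb6 in the immunoproteasome, had the largest change of the true proteasome genes. Its level was 8.63, 8.82 and 8.56 without OVA and 11.33, 11.20 and 11.40 with OVA. All 3 arrays with OVA lay above all 3 without, and the rise was 2.64 ± 0.14, or 6.23-fold (limma adjusted p = 2.7e-07). A second bright probe set of Psmb9 rose by 2.08 (limma adjusted p = 4.49e-06).

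Psmb8, which replaces Psmb5, stood at 9.66, 10.06 and 9.92 without OVA and at 11.67, 11.69 and 11.58 with it. The groups did not overlap, and the rise was 1.77 ± 0.14, or 3.4-fold (limma adjusted p = 2.65e-06). Psmb10, which replaces Psmb7, moved less. Its levels were 9.02, 9.50 and 9.09 without OVA and 9.66, 10.04 and 9.44 with it, so that the groups overlapped. Its change of 0.51 ± 0.18 passed narrowly (limma adjusted p = 0.0495), and 9 of 14 alternative settings ended the call, with adjusted p up to 0.389.

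The constitutive counterparts did not pass the test. Psmb5, the chymotrypsin-like site, was at 9.82, 10.06 and 10.21 without OVA and at 10.40, 10.80 and 10.19 with it (change 0.43 ± 0.17, limma adjusted p = 0.0621). Psmb6, the caspase-like site, was at 9.94, 10.20 and 10.25 against 10.40, 10.76 and 10.34 (0.37 ± 0.14, limma adjusted p = 0.0629). The arrays with OVA overlapped those without for Psmb5, through 1 low array, and lay above them for Psmb6. Psmb7, the trypsin-like site, had 1 array far from its group: 10.16, 7.95 and 8.05 without OVA against 9.23, 9.68 and 9.12 with it (0.62 ± 0.56, limma adjusted p = 0.437).

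Set array by array against its counterpart, Psmb9 gained more than Psmb6. Relative to the mean of the arrays without OVA, the Psmb9 change minus the Psmb6 change was 1.90 to 2.52 in the arrays with OVA and -0.23 to 0.15 in those without, a mean difference of 2.27. For Psmb8 minus Psmb5 the values were 1.04 to 1.54 against -0.14 to 0.15, with a mean difference of 1.33. For Psmb10 minus Psmb7 the mean difference was -0.11 and the groups overlapped.

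**Figure D1:**
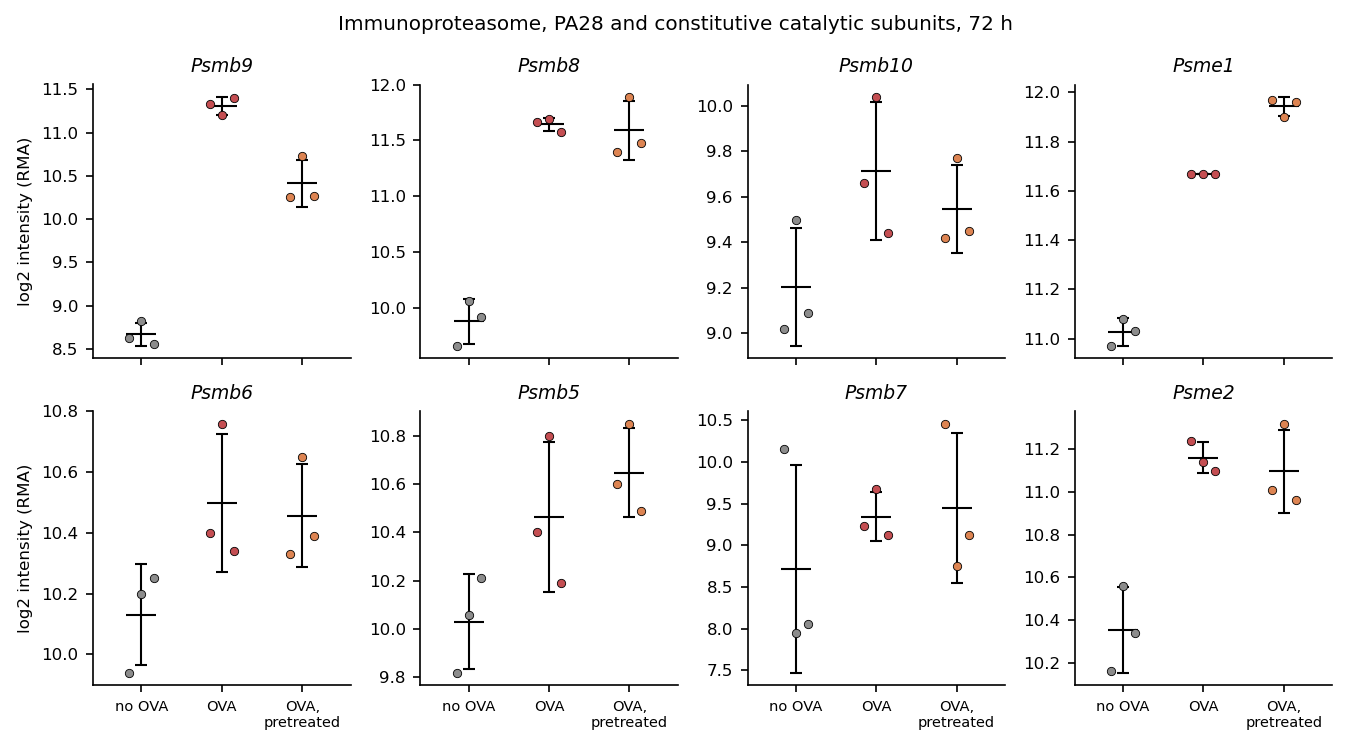
Log2 level (vertical axis) of Psmb9, Psmb8, Psmb10 and Psme1 (top) and of Psmb6, Psmb5, Psmb7 and Psme2 (bottom) in each array at 72 h, by group: without OVA, with OVA, and with OVA on pretreated macrophages. Points are arrays, and bars are means ± SD of 3 arrays. Psmb9 and Psmb8 lie above 11 in every array with OVA on untreated macrophages and at 10.06 or below without OVA. Psmb6 and Psmb5 move by less than 1 log2 unit, and the Psmb7 panel shows the single high array without OVA at 10.16.

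The genes of the immunoproteasome subunits that rose most lie on mouse chromosome 17 in the order Psmb9, Tap1, Psmb8, Tap2, among genes of the MHC; Tap1 and Tap2 encode the transporter that carries peptides to MHC class I. The 250 bases before their start sites are shown because both genes were higher with OVA at 72 h. They come from RefSeq on GRCm38.p6, at chr17:34187331-34187580 on the minus strand for Psmb9 and chr17:34197945-34198194 on the plus strand for Psmb8. The capitals mark a CCAAT box, read as ATTGG on the other strand, in Psmb9, and a match to TTCNNNGAA, the core of the sites that STAT factors bind, in Psmb8.
Psmb9: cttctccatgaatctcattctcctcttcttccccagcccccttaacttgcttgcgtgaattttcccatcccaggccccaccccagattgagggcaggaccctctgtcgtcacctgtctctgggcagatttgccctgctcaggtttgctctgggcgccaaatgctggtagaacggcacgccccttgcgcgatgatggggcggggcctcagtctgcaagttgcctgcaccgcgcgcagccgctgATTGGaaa
Psmb8: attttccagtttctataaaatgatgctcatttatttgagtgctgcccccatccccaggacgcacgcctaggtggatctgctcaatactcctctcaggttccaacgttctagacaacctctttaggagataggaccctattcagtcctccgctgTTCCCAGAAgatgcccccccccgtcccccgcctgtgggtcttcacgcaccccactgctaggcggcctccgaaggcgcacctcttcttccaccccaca

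For the constitutive counterparts, the stretch that holds a match to TGACNNNGC, the core of the element that NRF1 and related factors bind, is shown, since NRF1 is known to act on subunit genes. The Psmb5 stretch lies at chr14:54618019-54618057 on the minus strand and the Psmb6 stretch at chr11:70525333-70525356 on the plus strand, in the same build; the match is in capitals.
Psmb5: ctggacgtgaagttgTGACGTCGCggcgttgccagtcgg
Psmb6: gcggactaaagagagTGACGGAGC

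A window of 250 bases before to 50 after the start site was held for 42 of the 50 genes, as 46 windows, and both strands were searched. TGACNNNGC was in 13.0% of these windows (Psmb5, Psmb6, Psmc6, Psmd9, Psmd12 and Psme4) and in 12.4% of all 32851 RefSeq windows. TTCNNNGAA was in 6.52% (Psmb8, Psmd2 and Psmg1), against 8.3% of all. GAAANNGAAA, the core of the interferon-stimulated response element, was in 10.9% of the windows (Psmb3, Psmd4, Psmd9, Psme1 and Psmg4), against 3.44% of all. CCAAT was in 34.8%, against 37.4%. These motifs can overlap one another, and a match is a string of letters, not a bound site.

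The PA28 cap rose as a pair. Psme1, its alpha subunit, was at 10.97, 11.08 and 11.03 without OVA and at 11.67 in each array with it (0.64 ± 0.07, limma adjusted p = 2.42e-05). Psme2, its beta subunit, was at 10.16, 10.56 and 10.34 against 11.24, 11.14 and 11.10 (0.81 ± 0.13, limma adjusted p = 0.000368). For both genes all arrays with OVA lay above all arrays without.

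Outside the immunoproteasome, the largest rise of a proteasome gene was that of Psmd13, a scaffold subunit of the regulatory particle's lid. Its level was 6.04, 6.63 and 6.97 without OVA and 8.23, 8.59 and 8.49 with it (1.89 ± 0.34, limma adjusted p = 0.00101). Psme3, the subunit of the nuclear PA28 gamma activator, was at 6.45, 7.01 and 6.90 against 8.16, 8.85 and 8.32 (1.66 ± 0.22, limma adjusted p = 0.000106). Both groups of arrays were fully apart for these genes, with the array of replicate 1 the lowest without OVA.

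Psmg1 to Psmg4 encode the chaperones that put the core's rings together, and all 4 rose. Psmg1 was at 8.94, 9.21 and 9.25 without OVA and at 10.34, 10.62 and 10.27 with it (1.28 ± 0.16, limma adjusted p = 8.5e-05). Psmg2, its partner, was at 8.39, 8.42 and 8.32 against 9.58, 9.76 and 9.52 (1.24 ± 0.12, limma adjusted p = 1.26e-05). No array with OVA came within 1 log2 unit of an array without OVA for either gene. Psmg4 and Psmg3, the other pair, rose by 1.03 ± 0.14 and 0.94 ± 0.27. Psmc3ip, the recombination gene, moved further than any of these, from 4.66, 5.53 and 5.39 to 7.98, 8.48 and 8.29 (3.06 ± 0.34, limma adjusted p = 3.11e-05).

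Some genes have further probe sets that did not give the same call. Psmd11, Psmc4 and Psmd4, subunits of the regulatory particle, were not called on the brightest probe set (0.12, 0.23 and 0.27) and were called on another (0.74, 0.55 and 0.61). Psmf1, an inhibitor of the proteasome, was called on its brightest probe set (0.89), while its 3 others gave -0.07 to -0.32, and its change was 0.04 with the mean of all its probe sets (limma adjusted p = 0.855). Psmd7, Psme3, Psma1 and Psmc1, the ATPase that was called, were each called on the brightest probe set and had a dimmer one that was not (0.43 and -0.02 for Psmd7, 1.03 for Psme3, 0.54 for Psma1, 0.08 for Psmc1). The counts by role at 72 h thus depend on the probe set for these 8 genes.

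Genes next to the proteasome in its pathways moved in both directions with antigen at 72 h. Of 12 measured genes of MHC class I processing, 7 rose and 1 fell, led by Erap1, a peptide trimming enzyme (1.96), Nlrc5, a transactivator of class I genes (1.84), and Tapbpl, a peptide editor (1.79). Of 18 interferon signalling genes 9 rose and 2 fell, led by the inhibitor Socs1 (3.11), Ifng itself (3.08) and the GTPase gene Igtp (2.54). Of 16 ubiquitin and proteasome-associated genes 7 rose and 1 fell, among them the deubiquitinases Uchl5 (2.08) and Usp14 (1.29), which sit on the regulatory particle, and the shuttle factor Ubqln2 (-1.10). Of 8 genes of the NRF1 route 1 rose and 5 fell, with Nfe2l2 (-1.59), Maff (-1.34) and Syvn1 (-0.65) leading.

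The shift of the cell type markers ran through the same contrast: besides the mesothelial and macrophage lists, 4 of 6 CD4 T cell markers and 7 of 7 division genes were called higher with OVA. Their part in the proteasome result was not tested. The share of other cells and antigen cannot be told apart in these 6 arrays. With arrays centred on their medians 36 members were called higher (median 0.64, all genes 0.15), and with quantile normalization 25 (median 0.43, all genes 0.04); 0 were called lower under either.

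Nearly all of the genes were higher with OVA in the low media at 48 h. Averaged over the low arginine, leucine and lysine media, 45 of 49 genes were called higher and 1 lower, where 25.6% of all genes rose and 36.1% fell. The members' median change was 1.16, against -0.13 over all genes. In single media 44, 43 and 44 genes were called higher with OVA in low arginine, leucine and lysine (17.2%, 21.8% and 18.4% of all genes). Called lower were 0, 1 and 0 (12.2%, 19.5% and 12.6% of all genes). In all 3 media 41 were called higher, a joint rule that was not counted over all genes. All of the constitutive beta ring (7 of 7), the ATPases (6 of 6), the non-ATPase subunits (11 of 11), the chaperones (7 of 7) and the immunoproteasome (3 of 3) were called higher on average, as were 5 of 6 alpha subunits, 3 of 3 other activators and inhibitors, and 1 of 2 PA28 subunits.

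For 39 of the 49 genes every array with OVA in a low medium lay above every array without it, where 12.9% of all genes did so. The assembly chaperone Psmg1 showed the largest change, 2.12 ± 0.10 (limma adjusted p = 2.04e-14). With OVA it was at 8.37, 8.47 and 8.48 in low arginine, 8.93, 9.14 and 8.91 in low leucine, and 8.28, 8.30 and 8.91 in low lysine. Without OVA it was at 6.35 and 6.58 in low arginine, 6.54, 6.76 and 6.88 in low leucine, and 6.57, 6.08 and 6.47 in low lysine. The lowest array with OVA was more than 1 log2 unit above the highest without.

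Psmd14, the deubiquitinase of the lid, came next with 1.74 ± 0.08. Its levels with OVA were 9.24, 9.42 and 9.46 in low arginine, 9.25, 9.32 and 9.29 in low leucine, and 9.15, 9.03 and 9.57 in low lysine. Without OVA they were 7.28 and 7.77, then 7.58, 7.62 and 7.58, then 7.42, 7.65 and 7.66 in the same media. Its media lay close together on each side of the antigen contrast. The lid subunit Psmd7 rose by 1.74 ± 0.15, the chaperone Psmg2 by 1.71 ± 0.13 and the ATPase Psmc5 by 1.55 ± 0.10.

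The immunoproteasome subunits and the constitutive sites rose side by side here. Psmb9 rose by 1.50, 1.81 and 0.86 in low arginine, leucine and lysine, and Psmb6 by 1.01, 1.18 and 1.00. Psmb8 rose by 1.41, 1.29 and 0.78, and Psmb5 by 1.54, 1.46 and 1.36. Psmb10 rose by 0.64 and 0.69 and was at 0.38 in low lysine, short of the threshold (limma adjusted p = 0.0717), while Psmb7 rose by 1.14, 1.36 and 1.13.

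The array values show where the pairs differ. Psmb9 was at 10.46, 10.50 and 10.39 with OVA in low arginine, 10.49, 10.36 and 10.37 in low leucine, and 9.51, 8.77 and 10.24 in low lysine. Without OVA it was at 8.98 and 8.93, then 7.80, 9.08 and 8.90, then 8.80, 8.49 and 8.66. The second low lysine array with OVA thus lay below arrays without OVA in each of the low media, and the others lay above all arrays without OVA.

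For Psmb8, levels with OVA were 9.87, 10.01 and 9.88 in low arginine, 9.64, 9.74 and 9.60 in low leucine, and 9.15, 9.09 and 9.65 in low lysine. Without OVA they were 8.42 and 8.60, then 8.01, 8.62 and 8.49, then 8.45, 8.46 and 8.64. All arrays with OVA were above all without, and the lowest of them were replicates 1 and 2 in low lysine. The Psmb9 change minus the Psmb6 change was 0.49, 0.63 and -0.15 in the 3 media, the Psmb8 minus the Psmb5 change -0.13, -0.17 and -0.58, and the Psmb10 minus the Psmb7 change -0.51, -0.67 and -0.75.

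At 72 h in full medium the values were 2.27, 1.33 and -0.11. The contrasts differ in medium, time, platform and the markers of other cells in the arrays without OVA, and no test joins them. Mesothelial and stromal markers had a mean level of 10.25 without OVA at 72 h. In the low media without OVA their mean level was 5.83, 5.95 and 5.64 in low arginine, leucine and lysine. The cap genes parted: Psme1 rose by 1.11, 1.10 and 0.81, while Psme2 was called only in low lysine (0.51, limma adjusted p = 0.0443; 0.24 and 0.02 in low arginine and leucine).

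Of the 49 genes, 8 were not called higher in every low medium: Psma5, Psma8, Psmb3, Psmb10, Psmb11, Psmd9, Psme2 and Psme4. The Psma5 probe set on these arrays is dim, with a mean level of 4.41. Those of Psmb3, Psmd9 and Psme2 stood at percentiles 58.7, 66.0 and 83.1 of all probe sets at 48 h. At 72 h their probe sets stood at percentiles 98.4, 84.3 and 98.4. Psmb10 and Psme4 were at percentiles 92.8 and 88.6 at 48 h. Psma8 and Psmb11 encode core subunits of testis and thymus cortex, and their levels stayed between 4.14 and 5.29 in all arrays at 48 h. Psmb11 was called lower in low leucine (-0.51), a call that centring and quantile normalization ended.

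A comparison of the lists shows 23 genes called higher in all 3 low media and at 72 h in full medium. The share of all genes under this joint rule was not counted, so the overlap is not shown to be particular to the members. Another 16 were called in all low media and, though measured, not at 72 h; these hold the constitutive sites Psmb5, Psmb6 and Psmb7, the ATPases Psmc2 to Psmc5, and Psmd1, Psmd2, Psmd3, Psmd4, Psmd6, Psmd8 and Psmd11, with Psma7 and Psme3ip1. The share of all genes under that rule was not counted either, so these 16 are not shown to be particular. Of them, Psmd11, Psmc4 and Psmd4 were called at 72 h on another probe set (0.74, 0.55 and 0.61). Whether the antigen effect differs between 72 h and 48 h was not tested, since the platforms were not put in the same fit. The 72 h arrays without OVA also carried mesothelial and stromal markers.

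Whether the antigen effect differed between the low media was tested with limma's F test, which called 0 members and 33 genes in all (0.149%). At an unadjusted p below 0.05, 6 members passed, where 8.93% of all genes did. The adjusted p was 0.411 for Psmb8 and 0.592 for Psmb9.

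**Figure D2:**
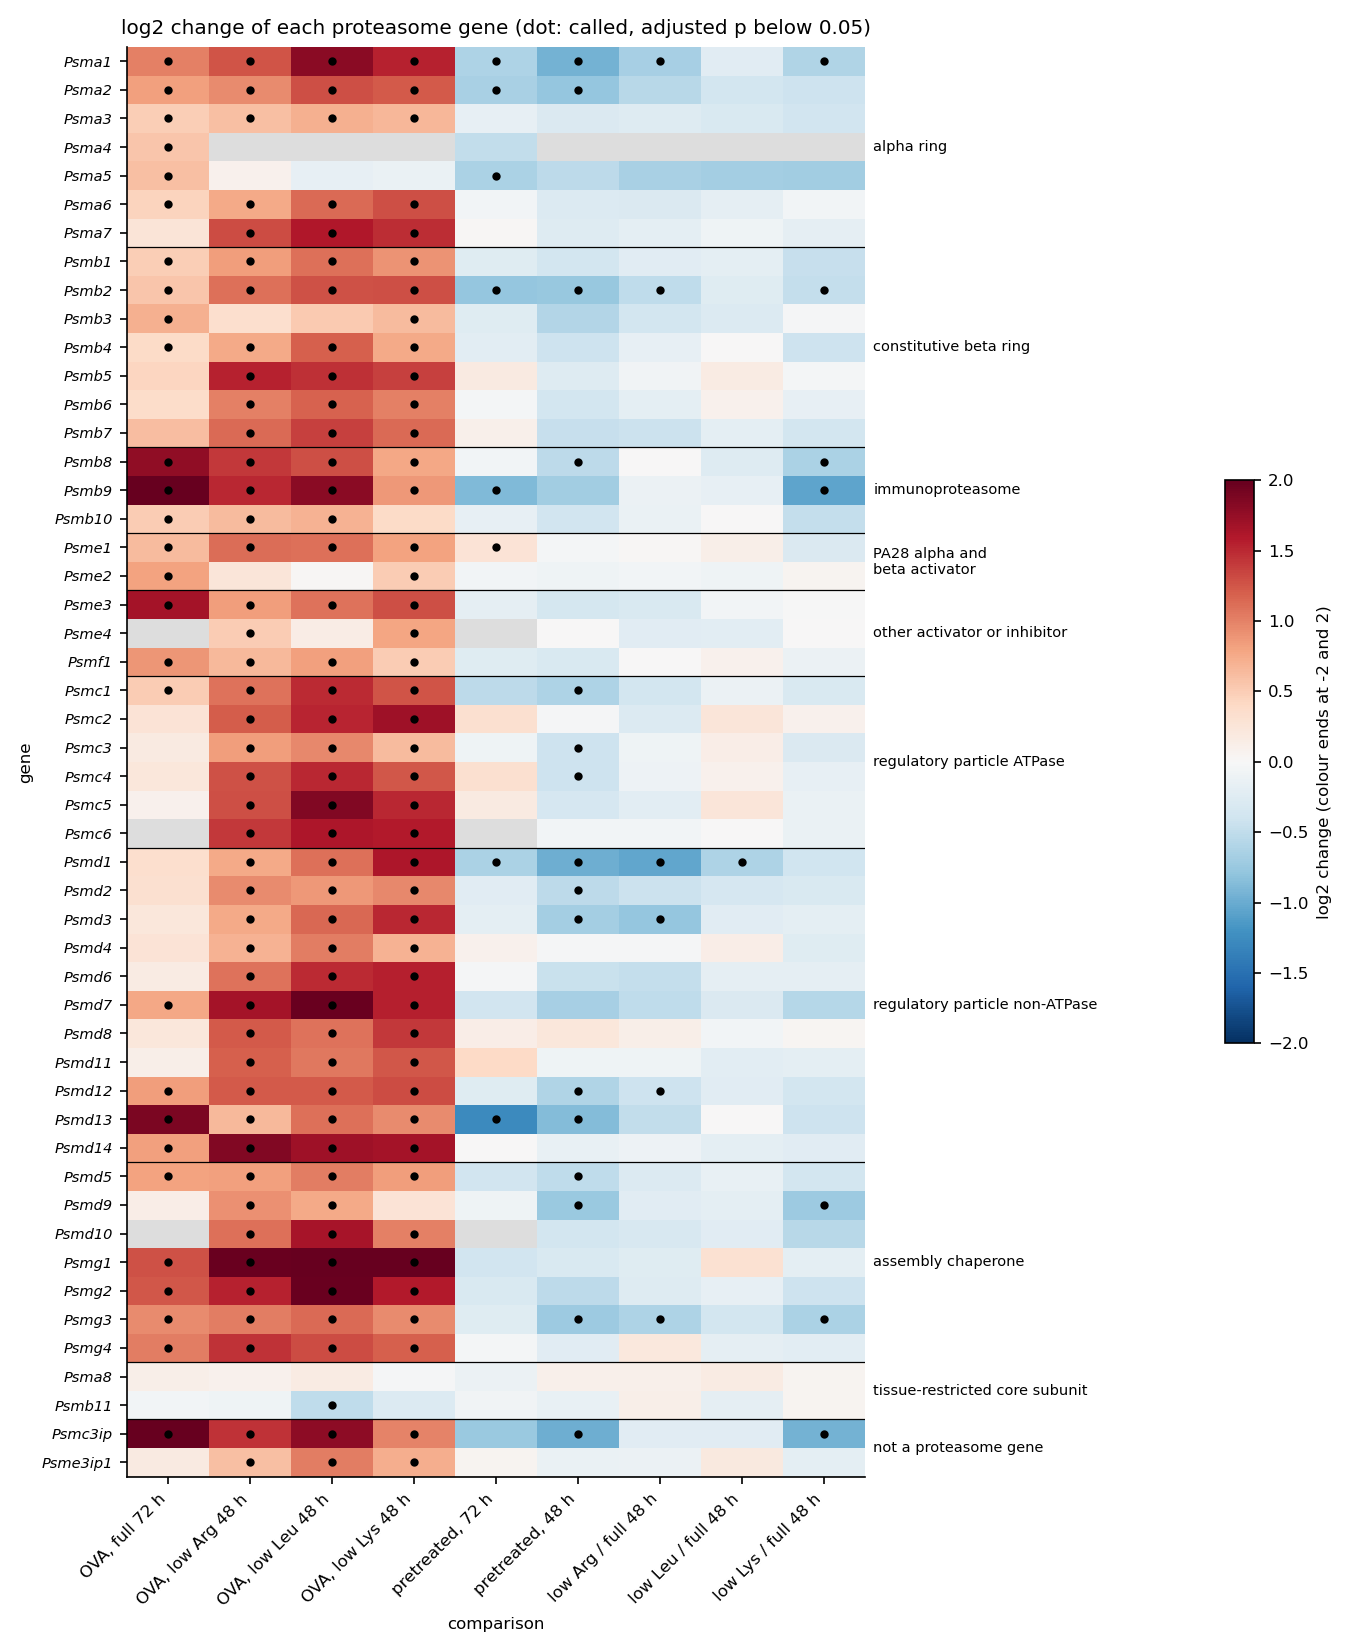
Log2 change (colour, ending at -2 and 2) of the 50 genes, in rows by role, in 9 comparisons, in columns: OVA in full medium at 72 h, OVA in low arginine, leucine and lysine at 48 h, pretreated macrophages at 72 h and 48 h, and each low medium against full medium. Dots mark calls at a limma adjusted p below 0.05, and grey cells are genes not measured on that platform. The columns for OVA in the low media are higher in nearly every cell, with 44, 43 and 44 genes called higher. Calls against full medium are few and all lower.

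The neighbouring lists had calls in the same contrast. Averaged over the media, 12 of 17 ubiquitin and proteasome-associated genes rose and 1 fell, led by Pomp, the maturation factor of the core (1.95), Txnl1, a thioredoxin of the regulatory particle (1.71), and Uchl5 (1.53). Of 9 NRF1 route genes 6 rose and 0 fell, among them Nfe2l1 (1.48), Sel1l of the degradation route of the endoplasmic reticulum (1.17) and the unfoldase Vcp (1.10). Of 14 MHC class I processing genes 11 rose, led by Tap1 (1.13), Erap1 (1.06) and Tapbpl (0.95), and of 18 interferon genes 10 rose and 4 fell, with Igtp (2.56), Socs1 (2.10) and the kinase Jak2 (2.07) first.

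Markers moved in this contrast as well. The 12 macrophage markers had a mean level of 6.89, 6.88 and 6.82 without OVA in low arginine, leucine and lysine, and of 6.22, 6.03 and 6.22 with it, and 10 of 12 were called lower on average, with 8 of 10 mesothelial and stromal markers. All 7 division genes were called higher, with mean levels of 5.75, 5.72 and 5.59 without OVA and 9.38, 9.13 and 7.69 with it. On average 4 of 6 CD4 T cell markers were called higher and 4 of 5 dendritic cell markers lower. The part of all these genes in the proteasome rise was not tested. Centring the arrays gave 47 genes higher (median 1.37, all genes 0.09), and quantile normalization gave 45 (median 0.85).

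Without OVA, limma called 0 of 49 genes between low arginine and low leucine, low arginine and low lysine, or low leucine and low lysine. Over all genes 0%, 0.00451% and 0.00902% were called. At an unadjusted p below 0.05, 3, 5 and 6 members passed, where 4.45%, 6.25% and 7.25% of all genes did. The low arginine group has 2 arrays, and a difference that misses the threshold is not shown to be 0.

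The effect of macrophage pretreatment was measured with OVA in full medium at both times, against OVA on untreated macrophages. At 48 h, 16 of 49 genes were lower and 0 higher, where 5.93% of all genes fell and 2.71% rose. The members' median change was -0.38, against 0.01 over all genes. The calls fell on 5 of 11 non-ATPase subunits, 3 of 6 ATPases, 3 of 7 chaperones, 2 of 6 alpha subunits, 1 of 7 constitutive beta subunits and 1 of 3 immunoproteasome subunits, with 0 of 2 in the PA28 cap; Psmc3ip was the remaining call. In 35 of 49 genes all arrays on pretreated macrophages lay below all arrays on untreated ones, where 15.1% of all genes did.

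Psmd1, a large scaffold of the regulatory particle's base, fell furthest of the proteasome genes at 48 h. Its levels were 9.43, 9.46 and 9.40 on untreated and 8.70, 8.36 and 8.31 on pretreated macrophages (-0.97 ± 0.16, limma adjusted p = 0.000312). Psma1, an alpha ring subunit, went from 10.11, 10.30 and 10.19 to 9.10, 9.16 and 9.49 (-0.95 ± 0.16, limma adjusted p = 0.000614). In both genes the untreated arrays agree closely and every pretreated array is lower.

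Psmd13 followed, from 8.27, 8.31 and 8.25 to 7.04, 7.46 and 7.72 (-0.87 ± 0.16, limma adjusted p = 0.000911). The alpha subunit Psma2 fell by 0.77 and Psmb2, a beta subunit with no cutting site, by 0.76; Psmb2 went from 10.75, 10.67 and 10.82 to 9.94, 10.01 and 10.01. Psmc3ip fell by 0.98. All of these calls held in each of 14 alternative settings.

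Of the catalytic subunits 1 was called at 48 h. Psmb8 was at 9.90, 10.01 and 9.85 on untreated and 9.25, 9.40 and 9.54 on pretreated macrophages (-0.52 ± 0.15, limma adjusted p = 0.0268), a call that ended in 5 of 14 alternatives, each the loss of 1 array. Psmb9 was at 10.38, 10.76 and 10.59 against 9.61, 9.93 and 10.07, with no overlap, but did not pass (-0.70 ± 0.27, limma adjusted p = 0.125). Psmb10 (-0.38), Psmb5 (-0.26), Psmb6 (-0.36) and Psmb7 (-0.46) had adjusted p between 0.0552 and 0.345. The cap genes stood at -0.04 for Psme1 and -0.08 for Psme2, with adjusted p of 0.907 and 0.881.

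At 72 h fewer genes passed: 7 of 47 were lower and 1 higher, where 5.91% of all genes fell and 3.78% rose. The members' median change was -0.17, against 0.02 over all genes, and in 14 genes all pretreated arrays lay below all untreated ones, where 13.3% of all genes did.

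Psmb9 had the smallest adjusted p at 72 h. Against 11.33, 11.20 and 11.40 on untreated macrophages it stood at 10.25, 10.73 and 10.27 on pretreated ones (-0.89 ± 0.14, limma adjusted p = 0.00474). The groups did not overlap, but a second bright probe set of Psmb9 gave -0.09 ± 0.17 (limma adjusted p = 0.841), and the call ended with the mean of its probe sets. Psmb8 was at 11.67, 11.69 and 11.58 against 11.40, 11.89 and 11.48 (-0.06, limma adjusted p = 0.864).

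Psmb2 was the next, at 10.64, 11.23 and 10.72 on untreated against 9.98, 10.21 and 10.08 on pretreated macrophages (-0.77 ± 0.15, limma adjusted p = 0.01). Psma2 was at 11.68, 12.15 and 11.76 against 11.11, 11.34 and 11.18 (-0.65 ± 0.13, limma adjusted p = 0.0114). Psma1 was at 10.90, 11.13 and 10.86 against 10.16, 10.57 and 10.34 (-0.61 ± 0.15, limma adjusted p = 0.0255). Dimmer probe sets of Psma1 gave -0.04 and -0.15 (limma adjusted p = 0.947 and 0.741). For these subunits of the core's rings the pretreated arrays were all below the untreated ones.

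Psmd13 had the widest spread, at 8.23, 8.59 and 8.49 against 6.81, 8.00 and 6.68 (-1.27 ± 0.34, limma adjusted p = 0.0401), with the array of replicate 2 between the others and the untreated group. Psma5 and Psmd1 were each lower by 0.64 (limma adjusted p = 0.0382 and 0.0393). Psmd1 was at 9.98, 10.77 and 10.37 against 9.77, 9.83 and 9.59. Its groups did not overlap, though untreated replicate 1 lay close to the pretreated arrays.

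Psme1 was the single gene called higher. It was at 11.67 in all untreated arrays and at 11.97, 11.90 and 11.96 on pretreated macrophages (0.27 ± 0.07, limma adjusted p = 0.0318). Psme2 (-0.06), Psmb10 (-0.17), Psmb5 (0.18), Psmb6 (-0.04) and Psmb7 (0.10) had adjusted p between 0.584 and 0.947. The same-numbered arrays at 72 h deviated together, and with the replicate number as a block 7 genes were called, 0 higher and 7 lower, where 8.95% of all genes were called; Psmd1 and Psme1 were not called in that fit. The count of 8 fell to 5 on leaving out untreated replicate 1, to 3 on leaving out untreated replicate 3 or pretreated replicate 1, and to 1 on leaving out pretreated replicate 3.

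Psma1, Psma2, Psmb2, Psmd1 and Psmd13 were lower at both times, which is 31.2% of the 16 genes lower at 48 h and 71.4% of the 7 lower at 72 h. Over all genes, 437 were lower at both times, 36.5% and 45.7% of those called lower at 48 h and 72 h and measured on both platforms. Of the 46 genes on both platforms, 33 had a negative change at both times and 11 had changes of opposite sign; of the 15938 genes on both platforms these were 4892 and 5806. The cultures of the 2 times are separate arrays on separate platforms.

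**Figure D3:**
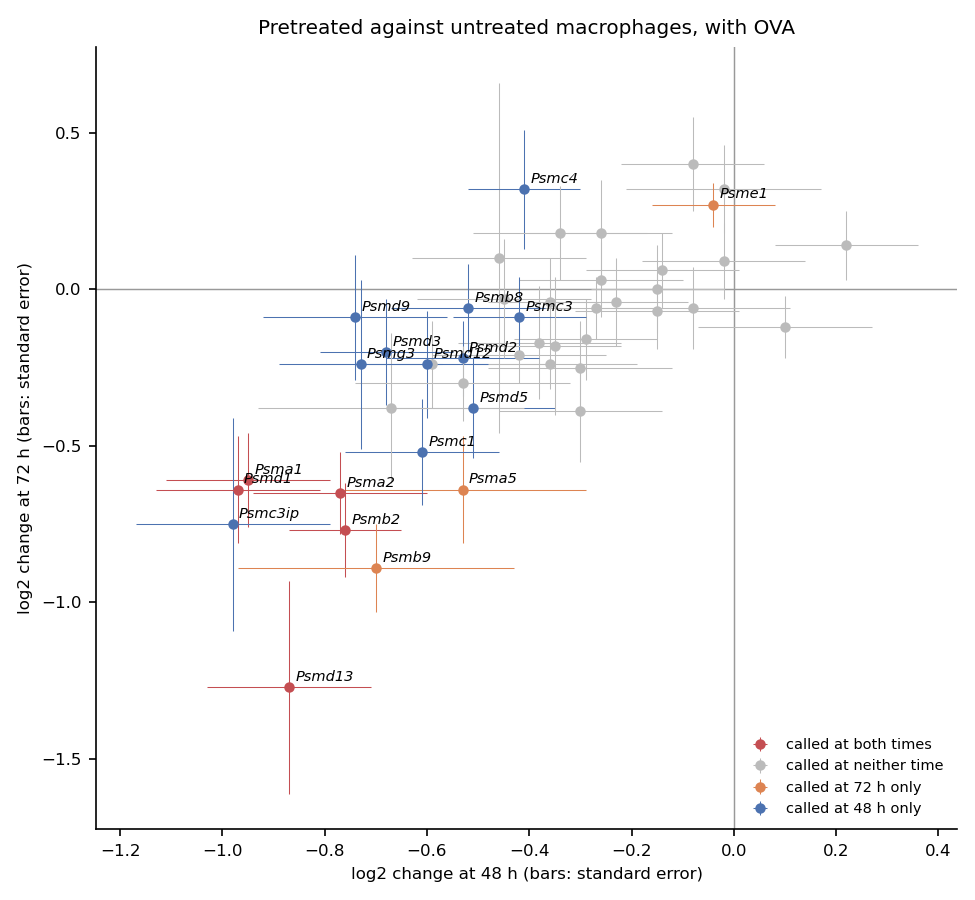
Log2 change on pretreated against untreated macrophages at 48 h (horizontal axis) and 72 h (vertical axis) for the 46 genes on both platforms, with SE bars; colours mark genes called at both times, at 48 h only, at 72 h only, and at neither. The 5 genes called at both times lie below 0 on both axes, Psmd13 the lowest at -1.27 on the 72 h axis.

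Psmd13 is shown with the bases before its start site because it was lower on pretreated macrophages at both times and its window held TGATGNAA, the core of the amino acid response element. Among the 42 members with a window, it alone held that motif. The motif was in 2.17% of the members' windows and in 3.97% of all windows. Psmd13 was not called in low arginine, low leucine or low lysine against full medium. The 250 bases lie at chr7:140882144-140882393 on the plus strand, RefSeq on GRCm38.p6, with the match, read as its reverse complement, in capitals.
Psmd13: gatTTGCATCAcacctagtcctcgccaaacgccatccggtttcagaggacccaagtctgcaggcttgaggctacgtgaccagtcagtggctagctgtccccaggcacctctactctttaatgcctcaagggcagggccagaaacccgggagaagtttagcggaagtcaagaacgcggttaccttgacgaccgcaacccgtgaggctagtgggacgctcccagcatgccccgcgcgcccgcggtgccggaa

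The neighbouring lists were split. At 48 h, 4 of 17 ubiquitin and proteasome-associated genes were lower and 0 higher, among them Pomp (-1.26), Sem1, a small lid subunit (-0.56), and Uchl5, which fell by 1.00, while 2 of 9 NRF1 route genes were higher, Sel1l (0.66) and Nfe2l1 (0.57). At 72 h, Pomp (-1.17), the peptidase Tpp2 (-0.88) and Sem1 (-0.65) led 4 lower genes of 16, with 1 higher, and 4 of 8 NRF1 route genes were higher, led by Maff (1.26), Nfe2l1 (1.09) and Sel1l (1.07). Nfe2l1 was thus called higher at both times while Pomp was called lower at both.

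Of the MHC class I processing genes, 3 of 14 were lower and 0 higher at 48 h, the chaperones Canx (-0.49), Pdia3 (-0.43) and Calr (-0.41). At 72 h, 3 of 12 were higher and 1 lower, led by the peptide loading factor Tapbp (0.74) and the class I heavy chains H2-D1 (0.63) and H2-K1 (0.46). Ifng was lower at both times (-1.42 and -1.58). Other interferon genes called were Jak2 at 48 h (0.69), and Ifngr2 (1.16) and Irf7 (1.13) among 5 higher and 2 lower of 18 at 72 h.

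Division genes and markers of other cells moved with pretreatment too. The mean level of 7 division genes at 48 h was 9.61, 9.71 and 9.64 on untreated and 6.96, 7.26 and 8.68 on pretreated macrophages, with 7 of 7 called lower. At 72 h it was 10.29, 10.25 and 10.64 against 7.87, 9.78 and 8.89, with 4 of 7 called lower. Macrophage markers at 48 h averaged 6.30, 6.34 and 6.30 against 6.77, 6.91 and 6.53, with 3 of 12 called higher, as were 2 of 5 dendritic cell markers. At 72 h macrophage markers averaged 3.69 to 3.76 on untreated and 3.98 to 4.20 on pretreated macrophages, with 1 of 12 called higher, Cd14 (1.98). Mesothelial and stromal markers averaged 4.15 to 4.61 against 4.69 to 6.52 at 72 h, with a median change of 0.77 and 1 of 10 called higher, Dcn (3.11). Their part in the result was not tested.

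Each low medium with OVA was set against full medium with OVA at 48 h. These comparisons share the 3 arrays of full medium with each other and with the pretreatment comparison at 48 h, so agreement between them is not independent. The full-medium arrays also carry submitter ID numbers from other runs than the low-media arrays, so medium and run cannot be told apart. In low arginine, leucine and lysine 0 members were called higher, where 1.51%, 1.15% and 2.49% of all genes were.

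In low arginine 6 of 49 genes were lower, where 3.17% of all genes were called lower, and the median was -0.23 against 0.01 over all genes. Psmd1 was at 8.44, 8.48 and 8.25 in low arginine, against 9.43, 9.46 and 9.40 in full medium (-1.04 ± 0.16, limma adjusted p = 0.0002). Psmd3, a lid subunit, was at 8.15, 8.20 and 8.50 against 8.96, 9.08 and 9.11 (-0.77 ± 0.13, limma adjusted p = 0.00107). Both genes lay well below full medium in all 3 arrays, and both kept the call in all 13 alternative settings.

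The other 4 calls in low arginine were smaller. They were Psma1 (-0.67 ± 0.16, limma adjusted p = 0.0168), the chaperone Psmg3 (-0.62 ± 0.16, 0.0232), Psmb2 (-0.51 ± 0.11, 0.00895) and the lid subunit Psmd12 (-0.42 ± 0.12, 0.0433). The immunoproteasome was not called: the differences were 0.00 for Psmb8, -0.12 for Psmb9 and -0.14 for Psmb10, with Psme1 at 0.03 and Psme2 at -0.06. Psmb5 (-0.07), Psmb6 (-0.19) and Psmb7 (-0.43) were not called either. Of 6 CD4 T cell markers 3 were called higher in low arginine, and their part was not tested. The count fell to 3 without full-medium replicate 2, 2 without full-medium replicate 3, 2 without low arginine replicate 1 and 3 without low arginine replicate 2.

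In low leucine a single gene passed, Psmd1 (-0.61 ± 0.16, limma adjusted p = 0.0314), where 1.56% of all genes were called lower. Its levels of 8.84, 8.85 and 8.76 lay between those of low arginine and those of full medium. The call ended on leaving out any 1 of the 6 arrays, and with centred arrays. The median over the members was -0.18. In the same contrast 2 of 6 CD4 T cell markers were called higher and 1 of 12 macrophage markers lower, and their part was not tested. Of the catalytic subunits and the cap, Psmb8 (-0.26), Psmb9 (-0.16), Psmb7 (-0.19), Psme2 (-0.09), Psmb10 (0.00), Psmb6 (0.08), Psme1 (0.11) and Psmb5 (0.16) had limma adjusted p between 0.525 and 0.999.

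In low lysine 7 genes were lower, where 6.24% of all genes were called lower, and the median was -0.29. Here the immunoproteasome was among them. Psmb9 was at 9.51, 8.77 and 10.24 against 10.38, 10.76 and 10.59 in full medium (-1.06 ± 0.27, limma adjusted p = 0.0166). Psmb8 was at 9.15, 9.09 and 9.65 against 9.90, 10.01 and 9.85 (-0.63 ± 0.15, limma adjusted p = 0.00983). In both genes all low lysine arrays were below full medium, with replicate 3 the closest to it.

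Psmb10 (-0.48, limma adjusted p = 0.0597), Psme1 (-0.29, 0.137) and Psme2 (0.06) did not pass, nor did Psmb5 (-0.04), Psmb6 (-0.16) and Psmb7 (-0.36). The other calls were Psmc3ip (-0.94), the chaperones Psmd9 (-0.72) and Psmg3 (-0.63), Psma1 (-0.60) and Psmb2 (-0.48). The count was 3 without full-medium replicate 2, 4 without full-medium replicate 3, 1 without low lysine replicate 1, 3 without low lysine replicate 2 and 22 without low lysine replicate 3. Calls over all genes also rose without low lysine replicate 3, to 14.4% from 8.73% with all arrays. The count of members was 0 when only the compared groups entered the fit.

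The 3 low lysine arrays were unlike one another in more than the proteasome. Their mean division level was 6.40, 7.82 and 8.85, and their mean level of 4 B cell markers was 7.14, 6.30 and 5.74, against 5.47 to 5.66 in full medium, with 3 of 4 B cell markers called higher. All 7 division genes were called lower than in full medium. Their part in the fall of the members was not tested. Averaged over 45 genes of the proteasome, the low lysine arrays with OVA lay 0.23, 0.10 and 0.59 above each gene's mean over all arrays, against 0.62, 0.64 and 0.60 in full medium.

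**Figure D4:**
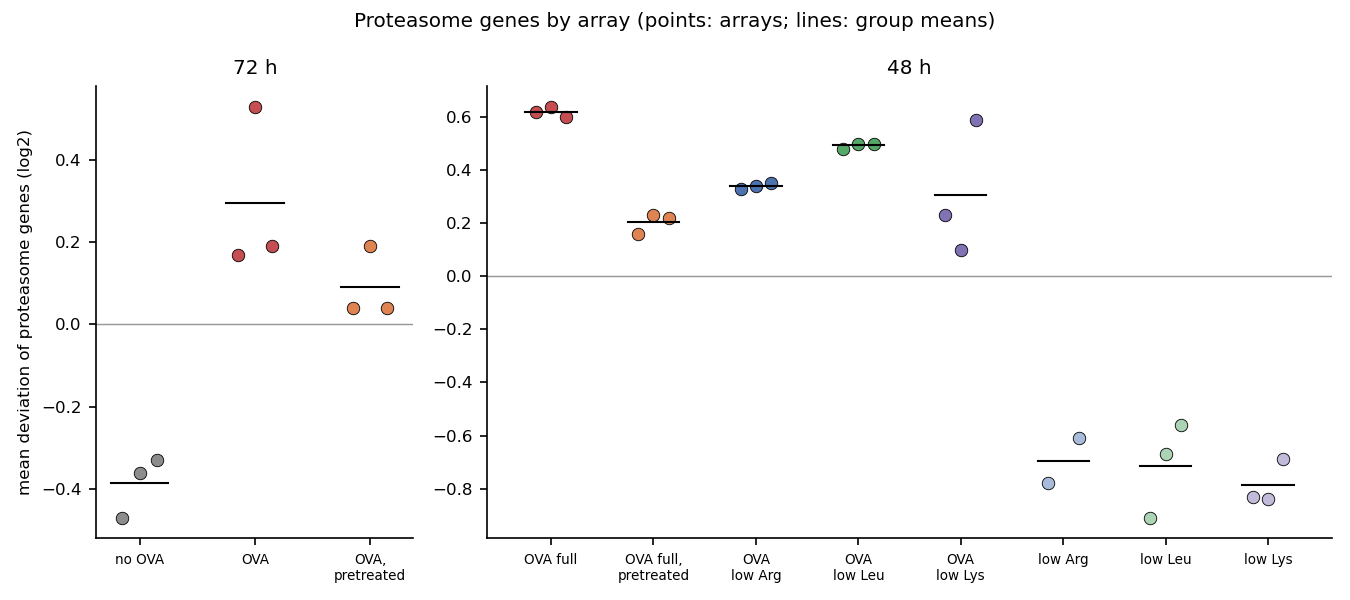
Mean deviation of each array from the mean of all arrays of its platform (vertical axis, log2), over 43 proteasome genes at 72 h and 45 at 48 h, by group; points are arrays and lines are group means. Arrays without OVA lie between -0.91 and -0.33, and arrays with OVA between 0.04 and 0.64 on both platforms. Low lysine with OVA spreads widest, from 0.10 to 0.59.

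The neighbouring lists were also measured in the low media against full medium. NRF1 route genes higher in all 3 media were Sel1l (0.83, 0.81 and 0.57 in low arginine, leucine and lysine) and Nfe2l1 (0.78, 0.75 and 0.58), with Nfe2l2 higher in low leucine (0.51) and Vcp lower in low arginine (-0.50). Ubiquitin and proteasome-associated genes were lower in 5 of 17, 1 of 17 and 4 of 17, with Tpp2 lower in each (-0.62, -0.60 and -0.46), and Pomp (-0.94 and -0.65) and Uchl5 (-0.70 and -0.81) in low arginine and low lysine. In low leucine, where 1 member was lower, Pomp and Uchl5 were not called.

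Of 14 MHC class I processing genes, low arginine had 2 higher and 2 lower (Calr -0.66, Canx -0.52, Tap1 0.51), low leucine 1 higher (Tapbpl 0.86) and low lysine 1 lower (Canx -0.45). Of 18 interferon genes, 1 was higher and 8 lower in low lysine (Ifng -1.28, Stat2 -1.13, Igtp -0.96). In low arginine 2 were higher and 3 lower (Ifng -1.75, Stat2 -0.81, Jak2 0.74), and in low leucine 1 higher and 5 lower (Jak2 0.93, Stat2 -0.88, Ifit1 -0.83). Stat2 was lower in each medium, but the media share the full-medium arrays.

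**Figure D5:**
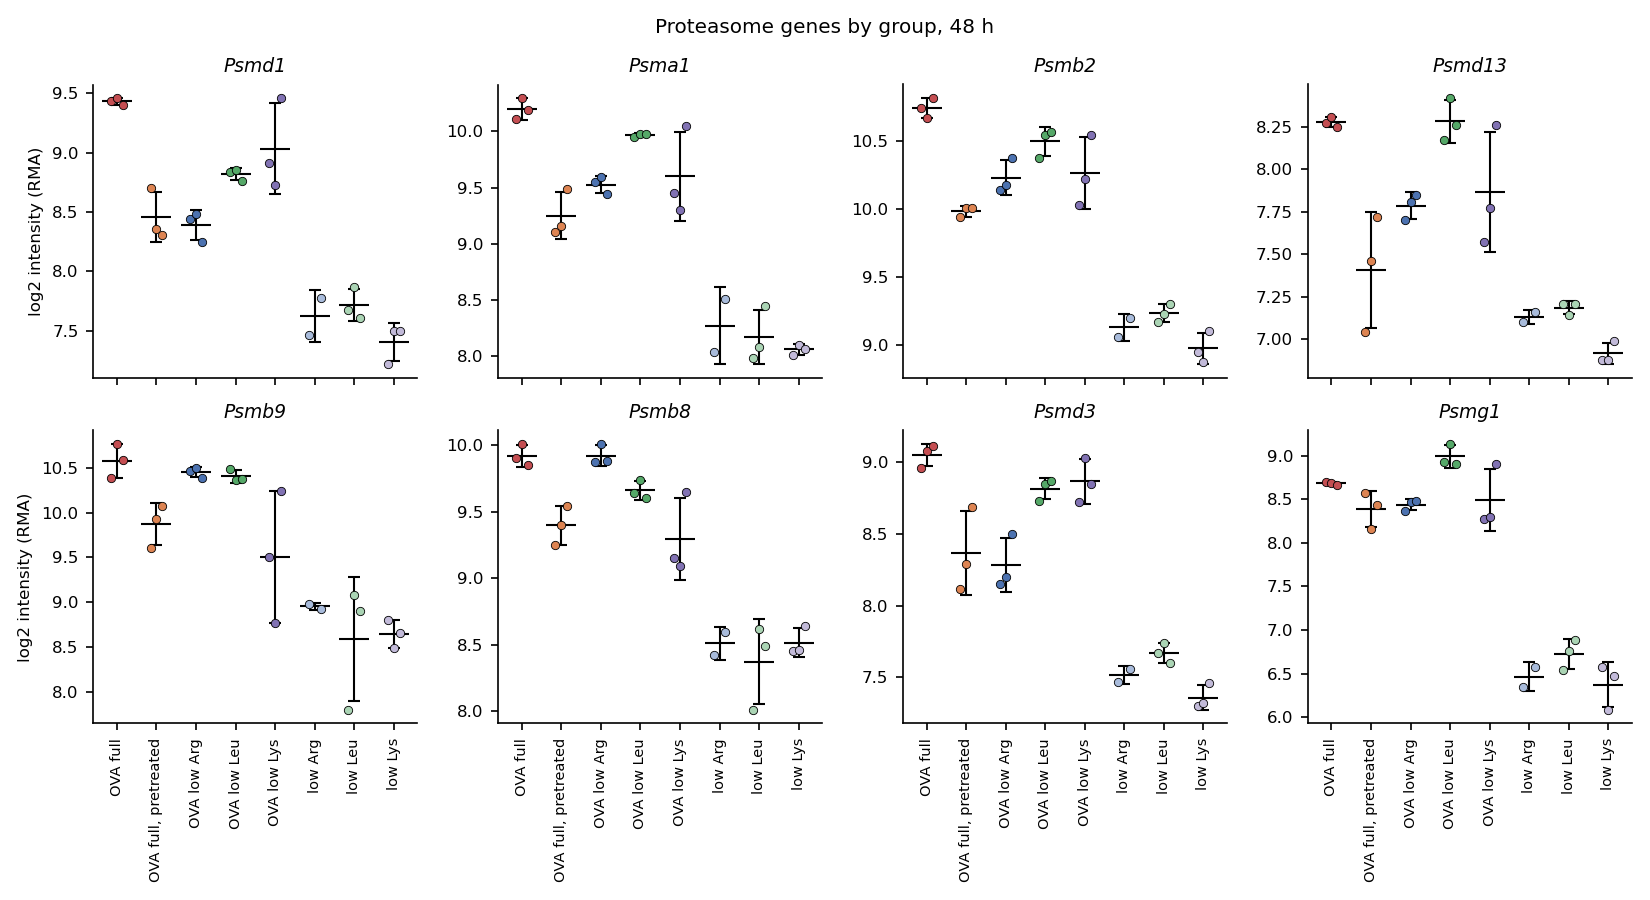
Log2 level (vertical axis) of Psmd1, Psma1, Psmb2, Psmd13, Psmb9, Psmb8, Psmd3 and Psmg1 in each array at 48 h, in 8 groups: OVA in full medium, OVA on pretreated macrophages, OVA in low arginine, leucine and lysine, and the low media without OVA. Points are arrays, and bars are means ± SD of 3 arrays (2 for low arginine without OVA). Psmd1 lies at 9.40 to 9.46 in full medium and at 8.25 to 8.48 in low arginine, and in all panels the groups without OVA have the lowest means.

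Set directly against each other with OVA, the low media differed in few members in the main fit, which ignores the replicate numbers. Other fits, given below, called more members for some of these pairs. Between low arginine and low leucine limma called 0 of 49 (0.712% of all genes). At an unadjusted p below 0.05, 12 members passed, where 9.59% of all genes did. Same-numbered arrays deviated together in this pair of groups, and with the replicate number as a block 13 members were called, 2 higher and 11 lower in low arginine, where 6.33% of all genes were called in that fit. Between low leucine and low lysine 0 were called (1.88% of all genes), and 15 passed at an unadjusted p below 0.05, where 16.3% of all genes did. Without low lysine replicate 3 the count called was 14, where 6.38% of all genes were called. In this contrast 3 of 7 division genes and 1 of 6 CD4 T cell markers were called higher in low leucine, and their part in the result was not tested.

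Between low arginine and low lysine 4 were called, where 3.22% of all genes were. Psmb8 (0.63, limma adjusted p = 0.0176) and Psmc3ip (0.72, 0.0399) were higher in low arginine, and Psmd1 (-0.65, 0.0206) and Psmd3 (-0.58, 0.0151) lower. Psmb9 differed by 0.94 and did not pass (limma adjusted p = 0.0603). Psmb8 and the regulatory particle's Psmd1 and Psmd3 thus lay on opposite sides of this contrast. Division genes moved in it as well: 5 of 7 were called higher in low arginine, with a median of 1.65, as were 1 of 6 CD4 T cell and 1 of 5 dendritic cell markers. Their part in the result was not tested. The count was 0 without low arginine replicate 1, 1 without low arginine replicate 2 or 3, 2 without low lysine replicate 1 and 1 without low lysine replicate 2. It was 7 without low lysine replicate 3, where 4.6% of all genes were called.

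Cells on pretreated macrophages were also set against the low media, with OVA at 48 h, where run and condition again cannot be told apart. Against low leucine 10 of 49 genes were lower on pretreated macrophages, where 3.47% of all genes were, led by Psmd13 (-0.88), Psmc3ip (-0.75), Psma1 (-0.72), Psmg1 (-0.61) and Psmc5 (-0.59). Psmd13 in low leucine was at 8.17, 8.42 and 8.26, against 7.04, 7.46 and 7.72. That gene was thus near its full-medium level in low leucine and lower in all arrays on pretreated macrophages. Beside this, 5 of 12 macrophage and 2 of 5 dendritic cell markers were called higher on pretreated macrophages than in low leucine, and 4 of 7 division genes and 2 of 6 CD4 T cell markers lower.

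Against low arginine 2 were lower, Psmb8 (-0.53, limma adjusted p = 0.0499) and Psmc3ip (-0.76, 0.0262), where 1.85% of all genes were. Against low lysine 2 were lower, Psmd1 (-0.58, 0.0387) and Psmd3 (-0.50, 0.0386), where 0.757% were. Against low arginine 6 of 7 division genes and 1 of 6 CD4 T cell markers were called lower and 2 of 12 macrophage markers higher. Against low lysine 4 of 12 macrophage and 2 of 5 dendritic cell markers were called higher and 2 of 4 B cell markers lower. The part of these markers in the 3 comparisons was not tested. Against low leucine, leaving out 1 array gave 5 without pretreated replicate 1, 6 without replicate 2, and 5, 4 and 5 without low leucine replicates 1, 2 and 3. Against low arginine it gave 0 without pretreated replicate 1 or 2, 1 without low arginine replicate 1 and 0 without low arginine replicate 2 or 3. Against low lysine it gave 1 without pretreated replicate 1, 0 without pretreated replicate 2, 1 without low lysine replicate 2 and 0 without low lysine replicate 3.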

How the data were processed

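Expression was measured on 23 MoGene-2_0-st arrays at 48 h and 9 HT_MG-430_PM arrays at 72 h. Per the submitters' processing notes, the authors ran RMA in Affymetrix Expression Console 1.1 and deposited log2 values of each probe set; which arrays were normalized together is not given in the sources used here, so the platforms were never joined. Of 41345 probe sets at 48 h, 23521 named 1 gene in the platform annotation, 1814 several and 16010 none; of 45037 at 72 h, the numbers were 28898, 551 and 15588. A gene stands by its probe set with the highest mean. No pair of arrays was identical. The number of arrays limits the precision.

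Groups were compared with limma 3.58.1 in R 4.3.3 (lmFit, eBayes with an intensity trend), a single fit per platform, two-sided, with Benjamini-Hochberg adjustment over all genes and calls at 0.05. The steps were tested on simulated data. The alternatives were centred arrays, quantile normalization, the mean of a gene's probe sets, leaving out the dimmest 33% of genes, no trend, only the compared groups, blocks, and leaving out each array. Tables and plots used Python 3.11.15, pandas 2.3.3 and matplotlib 3.10.9. Promoter windows are RefSeq's on GRCm38.p6.

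The members, lists and comparisons were chosen with earlier results of these data known. Text names Psmb8, Psmb9, Psmb10, Psme1, Psme2, Psmb5, Psmb6 and Psmb7 in each comparison described in full, up to 5 further called members with the largest changes each way, and up to 3 called genes of each neighbouring list; others were chosen after their values were seen. Over the 5000 genes with the highest mean, deviations of same-numbered arrays, numbered in the titles, correlated above 0.1 in every pair only in low arginine against low leucine with OVA (0.29 to 0.39) and in pretreatment at 72 h (0.16 to 0.26).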

Additional observations from a re-analysis of the deposited data

Results flagged for a closer look

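Some probe sets name a member together with another gene and were left out of the comparisons above. On the 72 h arrays a probe set shared by Psmd13 and its neighbour Sirt3 rose by 1.77 with OVA in full medium (limma adjusted p = 0.00248). Another probe set of that pair changed by 0.38 and did not pass (limma adjusted p = 0.232). On the 48 h arrays Psma4, an alpha ring subunit with no probe set of its own there, shares 2 probe sets with AY074887. With OVA these rose by 1.21 and 0.75 in low arginine, by 1.24 and 0.61 in low leucine, and by 1.25 and 0.70 in low lysine. Other shared probe sets went the other way. A probe set that names Psme2 with other genes changed by -1.08, -1.75 and -1.01 with OVA in low arginine, leucine and lysine (limma adjusted p = 0.00175, 2.29e-06 and 0.00103). A probe set of Psmd1 and Armc9 changed by -0.26 averaged over the low media (limma adjusted p = 0.0408). Signals of the genes that share a probe set cannot be told apart.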

How the results depend on the processing

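Counts below are members called by limma. Where no share of all genes stands beside a count, the count shows only its dependence on the setting. For pretreatment at 72 h (8), the mean of probe sets, no trend and only the compared groups gave 4 each, the submitter ID run as a block 0, and leaving out 1 array 1 to 9. Low arginine against full medium (6) gave 16 with only the compared groups and 2 to 5 leaving out 1 array. Low leucine against full medium (1) gave 0 with centred arrays, 7 with only the compared groups and 0 leaving out 1 array. Low lysine against full medium (7) gave 0 with only the compared groups and 1 to 22 leaving out 1 array. Low arginine against low leucine (0) gave 7 with only the compared groups and 13 with the ID run as a block. Low arginine against low lysine (4) gave 0 with only the compared groups, 0 with the ID run as a block and 0 to 7 leaving out 1 array. Low leucine against low lysine (0) gave 1 with centred arrays, 1 without the dim genes and 0 to 14 leaving out 1 array. Pretreated against low arginine (2) gave 1 with centred arrays, 1 without a trend and 0 to 2 leaving out 1 array; against low leucine (10), 4 to 8; against low lysine (2), 0 with centred arrays, 4 with quantile normalization, 0 with only the compared groups and 0 to 2. The F test (0) gave 0 to 1. For the other counts, leaving out 1 array gave 23 to 29 for antigen at 72 h, 11 to 14 for pretreatment at 48 h, and 34 to 44, 43 to 45 and 40 to 46 for antigen in low arginine, leucine and lysine.

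With the replicate number as a block the count was 17 for low arginine, 9 for low leucine and 0 for low lysine against full medium. In those fits 12.1%, 7.97% and 4.59% of all genes were called, against 4.67%, 2.72% and 8.73% without the block. The count was 13 for low arginine against low leucine, 0 for low arginine against low lysine and 0 for pretreated against low lysine (6.33%, 1.03% and 1.09% of all genes). It was 27 for antigen at 72 h (35% of all genes), and 7 and 19 for pretreatment at 72 h and 48 h (8.95% and 8.44%). For antigen in the low media it was 44, 44 and 42 (27.5%, 37.1% and 23.1%). Same-numbered arrays correlated above 0.1 in every pair for pretreatment at 72 h and for low arginine against low leucine only. Missing that rule does not show that arrays are unpaired. Against full medium, same-numbered arrays correlated by 0.05 to 0.38 in low arginine, 0 to 0.37 in low leucine and -0.16 to 0.12 in low lysine. Other pairs gave -0.27 to 0.14, -0.33 to 0.17 and -0.24 to 0.21. Of 262 called gene values, 0 changed sign under any alternative run and 66 lost the call under at least 1. The causes of these differences were not tested.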
